A study of Thermothelomyces thermophilus ATCC 42464 with 4 samples.

Results

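The cytosines described here carried a clear 5-methylcytosine (5mC) signal in both ΔlaeA libraries of *Myceliophthora thermophila* and were listed in neither WT library. A site was chosen by its deposited values: a depth of at least 30 reads and a level of at least 15% in each ΔlaeA list, and absence from both WT lists. This gave 187 sites among 2693648 positions listed in at least 1 library. Sites less than 500 bp apart were joined, which gave 168 loci. Of these, 161 held a single site, 6 held 2 sites and 1 locus on chromosome 4 held 14 sites. The ΔlaeA and WT values that chose the sites are given below as a description, with no test.

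ΔlaeA is the mutant of laeA, the gene for the putative methyltransferase LaeA, a global regulator of filamentous fungi. Its genotype is labelled as a knockdown, while the study's methods describe replacement of the coding region. The mutant was made by transforming a Cas9 cassette under Ptef1, a guide RNA under a U6 promoter, and donor DNA with a PtrpC-driven neo marker between flanking stretches of laeA copied from the fungal genome. How many copies of these fragments the strain carries, and where, is not given in the sources used here. The ΔlaeA libraries listed sites inside laeA (MYCTH_2294559, chromosome 1, 1373921 to 1375913), 62 and 25 of them against 2 and 1 in the WT libraries, so reads of the libraries labelled ΔlaeA covered part of the annotated gene. Neither ΔlaeA library listed a site over 592 bp within it (1374674 to 1375265). How much of laeA the mutant retains could therefore not be told from the lists. WT is the strain with laeA intact. Mycelium of both strains was exposed to glucose for 24 h, and genomic DNA from 2 samples per strain was analysed by whole genome bisulfite sequencing. The sources used here do not state whether the samples of a strain came from separate cultures, so the spread between them may be technical, and the mutant is a single engineered strain.

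In filamentous fungi, 5mC is placed by DNA methyltransferases and is found mostly in repeated and AT-rich DNA, where it accompanies heterochromatin. It is not restricted to CG dinucleotides but is also found at CHG and CHH positions, where H is any base but G. Bisulfite turns unmethylated cytosine into a base that is read as thymine, so the share of reads that still show cytosine gives the level of a site on its own strand. A cytosine that resisted conversion is read in the same way as a methylated one.

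The lists held between 1899567 sites (ΔlaeA replicate 2) and 2044100 sites (WT replicate 2). Listed sites were covered by a median of 56 and 47 reads in ΔlaeA, against 55 and 59 reads in WT. Every list stopped at a level of 5% and an adjusted p of 0.01, and no WT value was given for a site below these limits. A site that WT left unlisted may therefore have been methylated at a low level, unmethylated or thinly covered, and its depth in WT was not known. All intervals below are 95% Wilson intervals and cover counting error only. They count each read as a separate molecule, which was not checked.

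The sites were a small part of the clear methylation of ΔlaeA. A total of 456181 sites reached 30 reads and 15% in both ΔlaeA libraries, and 0.0410% of them were absent from both WT lists. With the strains exchanged, 400 of the 532050 sites clear in both WT libraries were absent from both ΔlaeA lists, or 0.0752%. Sites unlisted in the other strain were thus present in both directions. The share was higher in the direction that required absence from the ΔlaeA lists, of which ΔlaeA replicate 2 was the shallowest of all 4 lists. Both directions used that list, and the part of depth in this was not tested. The WT sites behaved like the ΔlaeA ones in size, since 360 of their loci held a single site, 15 held 2, 2 held 3 and 1 held 4. No locus of the exchanged rule reached the 14 sites seen on chromosome 4.

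Absence from a list was also common between libraries of the same strain. Of the sites clear in ΔlaeA replicate 1, 3.23% were unlisted in ΔlaeA replicate 2, against 2.06% unlisted in WT replicate 1 and 1.72% unlisted in WT replicate 2. Of the sites clear in ΔlaeA replicate 2, 2.0% were unlisted in ΔlaeA replicate 1, against 2.22% in WT replicate 1 and 1.89% in WT replicate 2. The share left unlisted by the other ΔlaeA library was therefore of the same order as the share left unlisted by a WT library. Absence from a single WT list would have kept many more sites: 2799 clear sites were absent from WT replicate 1 and 2182 from WT replicate 2.

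Most of the 187 sites lay close to the level limit. The level had a median of 17.5% (15 to 35.4%) in ΔlaeA replicate 1 and 17.5% (15 to 36.7%) in ΔlaeA replicate 2. The lower of the levels of a site was under 20% in 166 sites and at least 20% in 21 sites. Of the 21 higher sites, 11 belonged to the chromosome 4 locus and 10 were scattered. The replicates differed by a median of 2.13 percentage points per site and by at most 15.2 points, and 153 sites differed by no more than 5 points. Depth had a median of 45 reads (30 to 93) and 39 reads (30 to 74) in the ΔlaeA replicates, and the methylated reads a median of 8 and 7. With so few methylated reads, the interval of a site's level had a median width of 22.0 points in ΔlaeA replicate 1 and 23.7 points in ΔlaeA replicate 2.

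**Figure D1:**
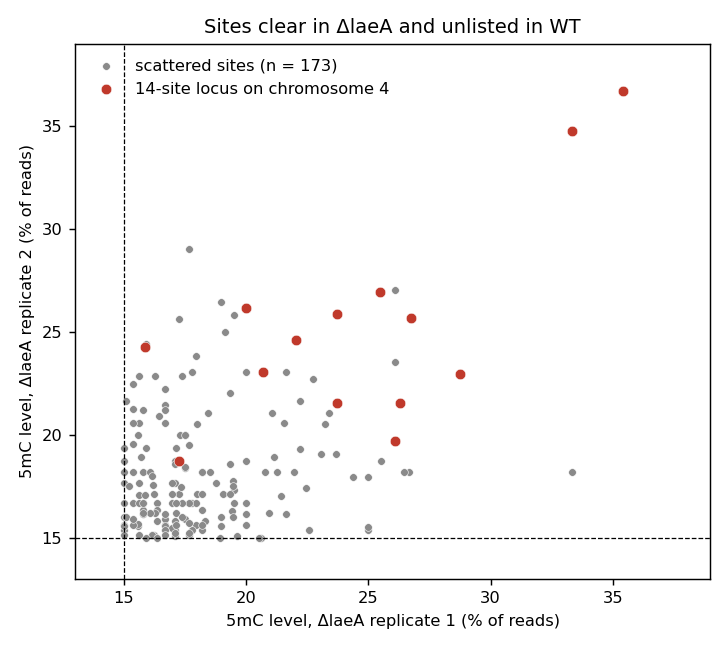
5mC level of each of the 187 sites in ΔlaeA replicate 1 (x axis) and ΔlaeA replicate 2 (y axis), in percent of reads, with the 15% limit as dashed lines. Most of the 173 scattered sites (grey) crowd the limit, while 11 of the 14 sites of the chromosome 4 locus (red) lie at 20% or more in both libraries.

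The share of clear sites left unlisted by the other strain fell with level and with depth in both directions. Among ΔlaeA sites with a lower level of 15 to 17.5%, 130 of 120257 were absent from WT, or 10.8 per 10000. Between 20 and 25% this was 16 of 115175, or 1.39 per 10000, and at 30% or more it was 2 of 72739. The exchanged rule gave 22.2 per 10000 WT sites at 15 to 17.5%, 2.11 per 10000 at 20 to 25%, and 0 of 96291 at 30% or more. Both ΔlaeA sites above 30% were in the chromosome 4 locus. By depth, the share was 10.7 per 10000 ΔlaeA sites at a lower depth of 30 to 34 reads and 2.05 per 10000 at 60 reads or more, where 5 of the 8 sites were from that locus.

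**Figure D2:**
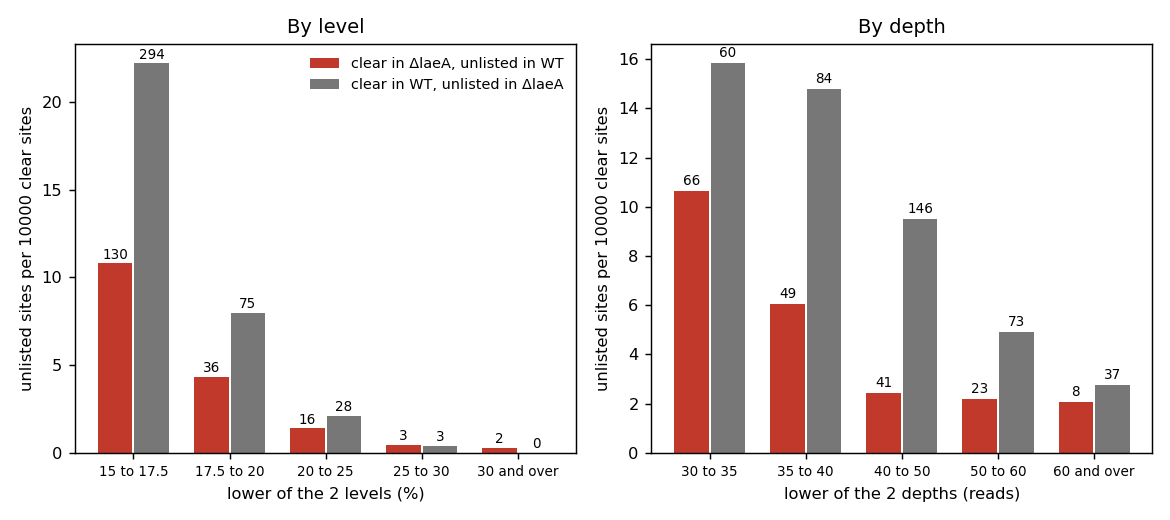
Unlisted sites per 10000 clear sites (bars from 0), by the lower of the levels (left, percent) and of the depths (right, reads) of the strain in which they were clear, with the number of unlisted sites above each bar. Red bars are clear in ΔlaeA and unlisted in WT, and grey bars are clear in WT and unlisted in ΔlaeA; the bars of both directions fall toward higher levels, from 10.8 to 0.275 per 10000 in red and from 22.2 to 0 in grey.

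At the level limit, 15 sites had a level of exactly 15% in a ΔlaeA library, the first 3 by position being on chromosome 1 at 3006970, 4490146 and 5568638. Their other levels were 19.4%, 20.6% and 20.5%. The first 3 outside had 14.9% in ΔlaeA replicate 1, against 15.4%, 19.6% and 19.5% in ΔlaeA replicate 2 (chromosome 1, 3548810 and 10443357, and chromosome 2, 300355). At the depth limit, 12 sites had exactly 30 reads in a ΔlaeA library, the first 3 by position (chromosome 1, 906102, 1654233 and 8091563) in replicate 2. The first outside had 29 reads in either library (chromosome 1, 1116891, 10222000 and 10804044). A further 126 sites that met the depth limit and were unlisted in WT had a lower level between 14% and 15%, and 41 sites that met the level limit had a lower depth of 25 to 29 reads. The limits therefore cut through a dense range of similar sites.

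The locus of 14 sites stood at chromosome 4, 3166035 to 3166062, a span of 28 bp. All 14 sites were on the minus strand, and 12 were CHH, 1 was CG and 1 was CHG. The CHG site at 3166051 had 17 of 48 reads methylated in ΔlaeA replicate 1 (35.4%, interval 23.4 to 49.6%) and 18 of 49 in ΔlaeA replicate 2 (36.7%, interval 24.7 to 50.7%), the highest levels of all 187 sites by the lower replicate. The CG site beside it at 3166050 had 33.3% (21.4 to 47.9%) and 34.8% (22.7 to 49.2%). Next in the order among all sites was a CG on chromosome 1 at 503352, described below, then the CHH sites at 3166061 (26.8% and 25.7%) and 3166052 (25.5% and 26.9%). Summed over the 14 sites, the share of methylated reads was 24.5% and 24.7% in the ΔlaeA replicates. The sites lie within the length of 1 sequenced fragment and share reads, so they are not 14 independent measurements.

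These 14 sites were the most strongly methylated part, near an end, of a wider stretch listed in ΔlaeA only. Both ΔlaeA libraries listed 60 sites between 3166018 and 3166390, a span of 373 bp. Neither WT library listed any site between 3165206 and 3166633, a gap of 1426 bp. The other 46 sites had levels of 5.02 to 16.0% in ΔlaeA replicate 1 and 5.05 to 13.6% in ΔlaeA replicate 2, on both strands (21 plus and 39 minus over the whole stretch). The stretch ended just inside MYCTH_2019371, an annotated gene at 3166349 to 3166931 whose function the sources used here do not name. The 14 sites lay 287 to 314 bp before its annotated start coordinate, and 4 of the 60 sites lay inside the gene. The annotation used gives no strand, so it was not known whether this end is the 5′ end of the gene.

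**Figure D3:**
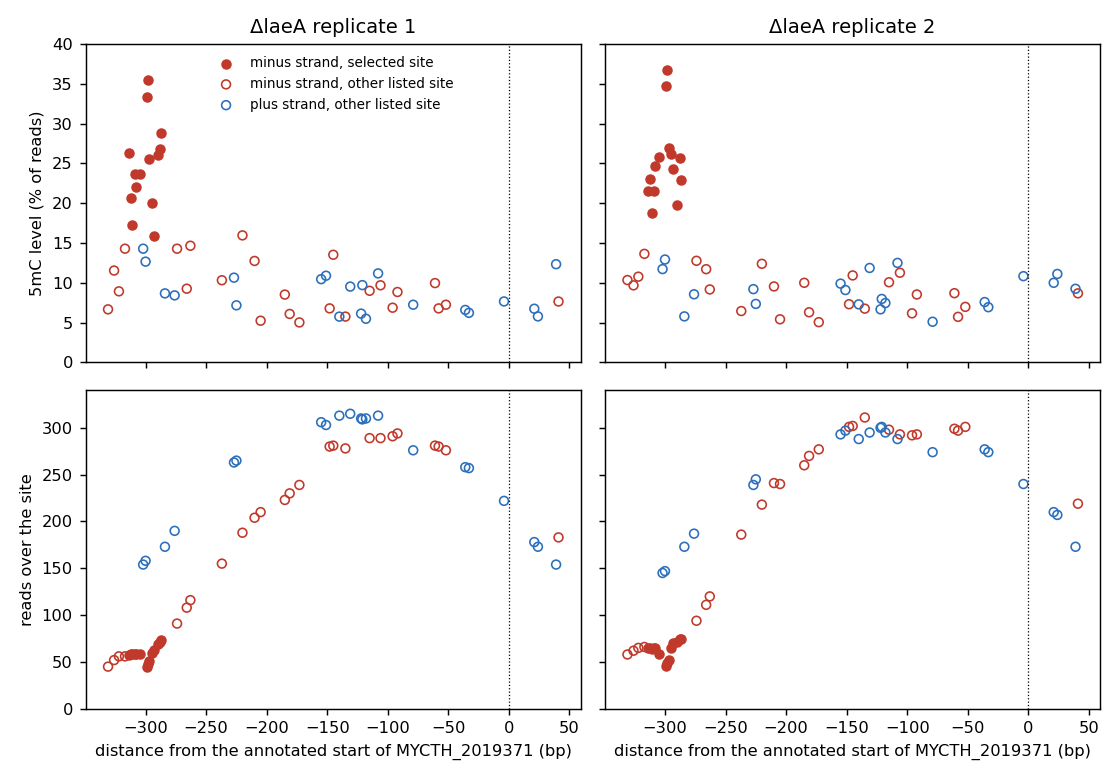
5mC level (top, percent of reads) and depth (bottom, reads) of the 60 sites listed in both ΔlaeA libraries near MYCTH_2019371, against the distance from its annotated start coordinate (dotted line), for ΔlaeA replicate 1 (left) and ΔlaeA replicate 2 (right). Filled red points are the 14 selected minus-strand sites, open points the other 46 listed sites (red minus, blue plus). The selected sites, chosen by their level, have at most 74 reads. Depth peaks at 315 and 311 reads before the gene start and is lower again at the start and inside the gene.

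Depth over much of the stretch, though not on the minus strand at the selected sites, was far above the median listed-site depth of both ΔlaeA libraries. Over the 60 sites, depth had a median of 189 reads in replicate 1 and 218.5 reads in replicate 2. It reached 315 and 311 reads in replicates 1 and 2, which was 5.63 and 6.62 times the median listed-site depth of those libraries. At the 14 selected sites the minus strand was covered by 45 to 73 reads and by 46 to 74 reads in the replicates. The plus-strand sites between them had 154 and 158 reads in replicate 1, and 145 and 147 reads in replicate 2. Their levels were 14.3% and 12.7% in replicate 1, and 11.7% and 12.9% in replicate 2. The latter of these sites, at 3166049, is the opposite strand of the CG at 3166050. Level and depth tended to run in opposite directions along the minus strand. The Pearson correlation was -0.70 in ΔlaeA replicate 1 and -0.75 in ΔlaeA replicate 2, over 39 neighbouring sites that share reads. The outermost minus-strand sites, 3166018 to 3166032, had few reads without the highest levels. They stood at 6.67 to 14.3% with 45 to 56 reads in replicate 1, and 9.68 to 13.6% with 58 to 66 reads in replicate 2. Methylated reads per site were 10 to 21 and 12 to 19 at the selected sites, and 3 to 38 and 6 to 36 at the other 46. What the raised depth contributed to the result was not tested, nor whether the reads came from more than 1 copy of the stretch in the mutant, introduced DNA included. The few sites listed within 3000 bp outside the stretch had 27 to 50 and 21 to 57 reads in the ΔlaeA libraries, against 33 to 58 and 21 to 43 reads in the WT libraries.

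The deposited region table gave values for both strains here. Over 157 CHH cytosines from 3165947 to 3166426, the authors' mean level was 4.57% in ΔlaeA and 0.379% in WT. Over 56 CG cytosines from 3166008 to 3166459 it was 2.54% in ΔlaeA and 0.243% in WT, and over 36 CHG cytosines from 3166051 to 3166404 it was 4.88% in ΔlaeA and 0.415% in WT. These are pooled means with no spread between replicates, over regions the authors selected on the same contrast. They gave WT a level for this stretch, so WT reads were present there, although its depth was not given.

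The other 173 sites were spread over all 7 chromosomes and lay within methylation that WT shared. They were 58, 15, 12, 28, 24, 15 and 21 on chromosomes 1 to 7. Within 500 bp of a scattered site, ΔlaeA replicates 1 and 2 listed a median of 216 and 199 sites, and WT replicates 1 and 2 a median of 210 and 214 sites. The fewest that either WT library listed around a scattered site was 42. The nearest site listed in both WT libraries was a median of 3 bp away (1 to 32 bp), and was within 10 bp for 161 of the 173. None of the scattered sites thus stood in a stretch that WT lacked, in contrast to the 14 sites of the chromosome 4 locus, around which WT listed 0 sites within 500 bp and the ΔlaeA libraries 64 and 86.

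At neighbours that both WT libraries listed, WT coverage was similar to that of ΔlaeA. Positions too thinly covered to be listed in WT are left out of this comparison. The nearest site on the same strand that both WT libraries listed had a median of 44 and 39 reads in the ΔlaeA replicates, where listed, against 41 and 44 reads in the WT replicates. These medians lay below those of all listed sites, which were 56 and 47 reads in ΔlaeA and 55 and 59 reads in WT. That nearest neighbour had at least 30 reads in both WT libraries for 155 of 173 sites. For 162 of the 173, both WT libraries listed a same-strand site within 50 bp on each side. At the depth of that nearest neighbour, the highest level that would have stayed unlisted had a median of 4.48% in each WT library, taken from the lowest methylated count that the list held at that depth. This would apply to the scattered site itself only if its own WT depth equalled that of its neighbour.

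**Figure D4:**
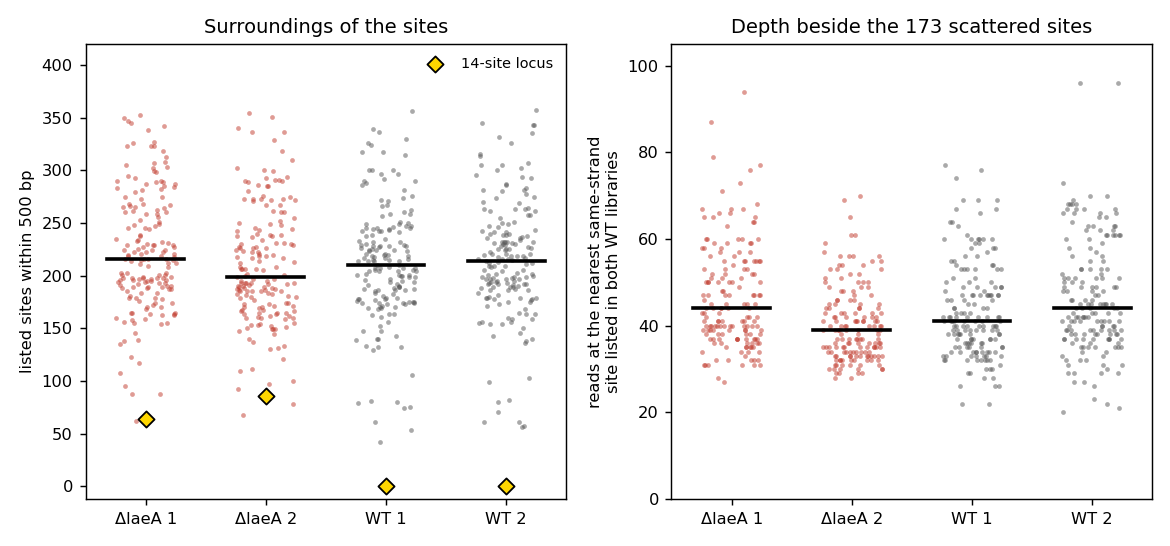
Number of listed sites within 500 bp (left) and reads at the nearest same-strand site listed in both WT libraries (right) for each of the 173 scattered sites, by library, with medians as black lines. The scattered sites have medians of 199 to 216 listed neighbours in every library, while the 14-site locus (yellow diamonds) has 64 and 86 in ΔlaeA and 0 in both WT libraries.

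The methylation that both strains shared next to the scattered sites had a slightly higher median in ΔlaeA. Sites listed in all 4 libraries lay within 50 bp of 171 scattered sites, a median of 14 each. Their pooled level had a median of 18.4% and 17.5% in ΔlaeA replicates 1 and 2, against 16.5% and 16.5% in WT replicates 1 and 2. Both ΔlaeA libraries lay above both WT libraries beside 62 of the 171 sites, or 36.3%, while this held beside 16.0% of all clear ΔlaeA sites. Both ΔlaeA libraries lay below both WT libraries beside 10 sites, or 5.85%, against a background of 21.7%, and the strains overlapped beside the other 99. Since the scattered sites were selected on the same contrast and their neighbours share reads with them, these counts are a description of the selection and carry no test. Beside the 400 sites of the exchanged rule the order was turned round, with both ΔlaeA libraries below both WT libraries beside 51.3% of the 390 sites that could be compared, against 27.1% of all clear WT sites.

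**Figure D5:**
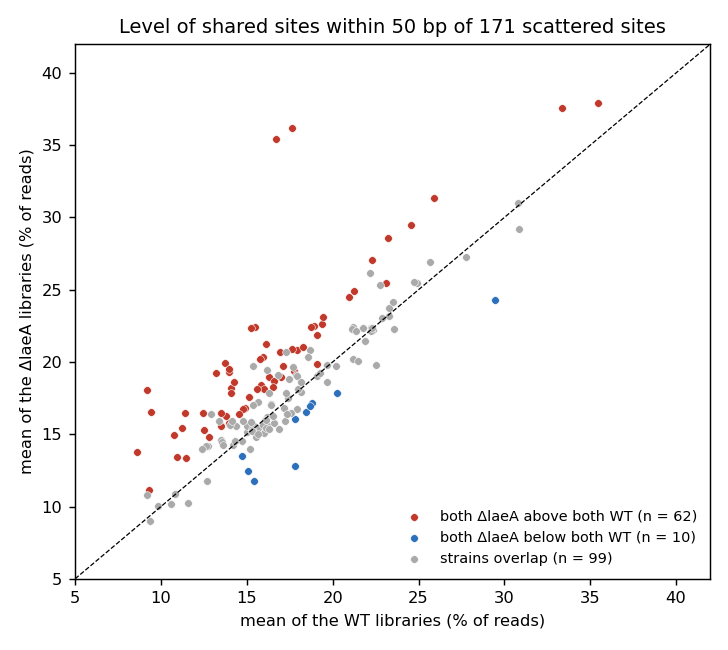
Pooled 5mC level of the sites listed in all 4 libraries within 50 bp of each of 171 scattered sites, as the mean of the ΔlaeA libraries (y axis, percent of reads) against the mean of the WT libraries (x axis), with equality dashed. Both ΔlaeA libraries lie above both WT libraries at 62 sites (red) and below them at 10 (blue), and the strains overlap at 99 (grey).

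The pattern in which a cytosine is unlisted while its neighbours are listed is shown best by the site at chromosome 1, 503352, a CG on the plus strand and the most methylated of the scattered sites by its lower replicate. It had 12 of 46 reads methylated in ΔlaeA replicate 1 (26.1%, interval 15.6 to 40.3%) and 10 of 37 in ΔlaeA replicate 2 (27.0%, interval 15.4 to 43.0%). The opposite-strand cytosine of the same CG was listed in all 4 libraries. Its level was 24.6% and 20.5% in ΔlaeA replicates 1 and 2, against 21.1% and 23.2% in WT replicates 1 and 2. The nearest same-strand site listed in both WT libraries was 6 bp away. Its level was 28.9% and 33.3% in ΔlaeA replicates 1 and 2, against 24.5% and 43.2% in WT replicates 1 and 2, with 53 and 37 WT reads. A densely methylated neighbour was thus well covered in WT at a distance of 6 bp. The nearest gene, MYCTH_2114100, was 14951 bp away.

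The 6 loci of 2 sites spanned 36 to 182 bp. On chromosome 1, 951811 to 951846, both sites were CG, on opposite strands. The plus-strand site had 25.5% and 18.8% in the ΔlaeA replicates, and the minus-strand site 21.1% in each. Shared sites within 50 bp of the first stood at 37.2% and 33.7% in the ΔlaeA replicates, against 16.4% and 17.1% in the WT replicates. Here the surrounding methylation was higher in ΔlaeA by more than the replicates differed. The authors' mean over 36 CG cytosines from 951673 to 952013 was 21.0% in ΔlaeA and 9.84% in WT, and over 305 CHH cytosines from 951326 to 952385 it was 23.5% in ΔlaeA and 13.8% in WT.

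On chromosome 7, both sites at 33940 and 34049 were CHH, 42 and 151 bp beyond the annotated end of MYCTH_2311259 (31445 to 33898). The site at 33940 had 17.3% and 17.5% in the ΔlaeA replicates and the site at 34049 had 20% and 15.6%. Shared sites within 50 bp of 33940 stood at 18.8% and 17.3% in ΔlaeA, against 10.7% and 7.68% in WT. Fewer sites were listed there in WT than in ΔlaeA, with a median of 155 and 146 in the ΔlaeA libraries and 77 and 61 in the WT libraries within 500 bp. The authors' mean over 162 CHH cytosines from 33579 to 34149 was 6.56% in ΔlaeA and 2.84% in WT, and over 22 CHG cytosines from 33910 to 34086 it was 11.3% in ΔlaeA and 5.50% in WT.

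At the other 4 loci of 2 sites, the strains overlapped beside some sites and not beside others. At chromosome 1, 486239 and 486338, the sites had 17.1% and 15.4%, and 15.6% and 15.6%, in ΔlaeA replicates 1 and 2. Shared sites near the first stood at 17.6% and 15.9% in ΔlaeA, against 18.8% and 17.1% in WT, so the strains overlapped, while near the second they stood at 17.0% and 16.6% in ΔlaeA, against 14.9% and 14.9% in WT. At chromosome 1, 10212734 and 10212785, the levels were 16.3% and 22.9%, and 18.8% and 17.6%, with shared sites near the first at 19.2% and 17.1% in ΔlaeA, against 14.9% and 17.1% in WT, and near the second at 22.3% and 19.1% in ΔlaeA, against 16.0% and 17.8% in WT. At chromosome 5, 1007523 and 1007704, they were 16.7% and 22.2%, and 33.3% and 18.2%, with shared sites near the first at 20% and 19.4% in ΔlaeA, against 17.9% and 16.2% in WT, and near the second at 19.6% and 12.3% in ΔlaeA, against 16.5% and 15.7% in WT. The second site showed the largest difference between replicates of all 187. At chromosome 4, 3755715 and 3755836, both inside MYCTH_94693 (3752549 to 3756027), they were 15.6% and 17.6%, and 15.8% and 16.7%, with shared sites near the first at 18.5% and 19.7% in ΔlaeA, against 19.4% and 14.3% in WT, and near the second at 17.7% and 17.4% in ΔlaeA, against 16.2% and 14.1% in WT.

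The remaining 161 loci held a single site. The first 5 along chromosome 1 were at 414587 (17.1% and 15.8% in ΔlaeA replicates 1 and 2), 503352 (above), 902995 (20.8% and 18.2%), 906102 (20% and 16.7%) and 907402 (21.6% and 20.6%). The 902995 site lay in a region of 214 CHH cytosines for which the authors' mean was 9.72% in ΔlaeA and 5.62% in WT. Single sites in such regions were also found at chromosome 5, 3179991 (6.97% in ΔlaeA and 3.45% in WT) and chromosome 7, 587400 (8.22% in ΔlaeA and 4.90% in WT). In all, 21 of the 187 sites lay inside a region of the deposited table, 14 of them in the chromosome 4 locus. That was 11.2% of the sites, or 4.05% without that locus, against 0.695% of all clear ΔlaeA sites; the regions were selected on the same contrast, so nothing is read from this.

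By context, the sites were 140 CHH (74.9%), 25 CG (13.4%) and 22 CHG (11.8%). Among all sites clear in ΔlaeA these shares were 82.1% CHH, 7.33% CG and 10.6% CHG. CG was thus the context most often left unlisted in WT, at 0.0748% of clear CG sites, against 0.0457% for CHG and 0.0374% for CHH. Without the 14-site locus the values were 0.0718%, 0.0436% and 0.0342%. The exchanged rule gave the same order, at 0.195% for CG, 0.0925% for CHG and 0.0622% for CHH. The plus strand held 92 sites and the minus strand 95, or 92 and 81 without the 14-site locus.

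CG and CHG sites face a cytosine of the same context on the other strand. For the 24 scattered CG sites, both WT libraries listed that partner in 10 cases, a single WT library in 3 and neither in 11. Where the partner was listed in all 4 libraries (7 sites), its median level was 17.9% and 20% in ΔlaeA replicates 1 and 2, against 15.4% and 15.3% in WT replicates 1 and 2. For the 21 scattered CHG sites, both WT libraries listed the partner in 11 cases, a single library in 3 and neither in 7. Its median over the 11 sites listed in all 4 libraries was 17.6% and 13.7% in ΔlaeA, against 18.5% and 19.2% in WT. Both ΔlaeA libraries listed the partner of 9 of the 24 CG and 12 of the 21 CHG sites, so the partner was listed about as often in ΔlaeA as in WT.

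Most of the sites lay outside genes, as did most clear ΔlaeA sites. In a gene body lay 9 sites (4.81%, against 3.07% of all clear ΔlaeA sites), in 7 genes with at most 2 sites each. Without the chromosome 4 locus this share was 5.20%. Inside or within 1 kb of a gene were 33 sites (17.6%, against 9.91% of clear sites), of which 14 were the chromosome 4 locus. Without it 19 of 173 sites remained, or 11.0%, close to the share of clear sites. MYCTH_2019371 was the only gene with 5 or more sites in its 1 kb flanks, and no gene held 3 or more in its body. The median distance from a scattered site to the nearest annotated gene was 7430 bp.

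A list of 17 genes was picked from those that the study discusses. Among them were the carbon catabolite repressor gene cre-1, the cellulase regulator genes clr-1 and clr-2 and the gluconeogenic gene pck. None of the 17 had a selected site in its body or within 1 kb. The closest site to any of the 17 was 27.8 kb away, from pck (MYCTH_2315623). The study names further genes outside this list. One of them, the amino acid permease gene MYCTH_2299723, lay 2505 bp from the site at chromosome 1, 10324612. As only 7 genes of the whole annotation held a selected site in the body, nothing is read from the absence at the 17. The laeA gene itself held none either, although 16 of its sites were in both ΔlaeA lists and in neither WT list. Only 5 of the 16 had 30 reads in both libraries, and the highest lower level among those was 7.94%. Before the 592-bp gap, ΔlaeA replicate 1 listed 54 sites with 5 to 161 reads and levels up to 80%, and replicate 2 listed 25 sites with 5 to 123 reads and levels up to 71.4%. The highest levels rested on few reads, 5 in replicate 1 and 7 in replicate 2. Beyond the gap, replicate 1 listed 8 sites with 30 to 44 reads and levels of 5 to 7.89%, and replicate 2 listed 0. Listings in laeA thus fell short of the depth limit or of the level limit, and reads were present on both sides of the gap in replicate 1.

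The 1-kb windows around the sites were placed beside the rest of the genome. Windows were tested with edgeR's quasi-likelihood F-test on the reads of sites listed in all 4 libraries, with Benjamini-Hochberg adjustment over 10187 windows. Of 168 windows that held a selected site, 167 could be tested, and the window of the chromosome 4 locus could not, for want of shared sites. In 11 of the 167 (6.59%) the adjusted p was below 0.05, all with a higher level in ΔlaeA. Over all windows 4.59% were called, 1.06% as higher and 3.53% as lower in ΔlaeA. Of these calls 23.1% were higher in ΔlaeA, and 43.7% with each library's overall level as an offset, under which 19 of the 167 windows were called. Without WT replicate 1 the count was 4 of the 167. Nothing is read from this count, because the sites were selected on the same contrast. The fitted log2 difference of odds, ΔlaeA over WT, had a median of 0.01 in the 167 windows and of -0.05 in all windows, and the level of the 167 windows had a median of 17.6% and 17.3% in the ΔlaeA libraries, against 17.5% and 17.6% in the WT libraries.

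A small share of the sites lay in long stretches where methylation was higher in ΔlaeA. There were 3 runs of at least 20 tested windows, all with a fitted value above 0 and no more than 3 kb between neighbouring starts. They were on chromosome 1 from 902001 to 953000 and from 4604001 to 4628000, and on chromosome 7 from 607001 to 708000. In these runs 30 of 51, 10 of 24 and 31 of 101 windows were called by the test above. They held 7, 2 and 5 of the 187 sites, together 7.49%, against 1.78% of all clear ΔlaeA sites. Both the runs and the sites were chosen by ΔlaeA being above WT, so nothing is read from this share.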

How the data were processed

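Bisulfite libraries of 2 ΔlaeA and 2 WT mycelium samples were used. Per the submitters' processing notes, FastQC 0.11.5 and Bismark 0.16.3 were used; the genome build and read trimming are not given in the sources used here. The authors deposited, for each library, the counts of methylated and unmethylated reads per listed cytosine, the level as a fraction of reads, its context, and a p-value with its adjusted form. The lists hold no site below a level of 5%, a depth of 5 reads or 2 methylated reads, so a site missing from a list has no depth there. The deposited region table gives the authors' mean fraction per strain, used here as such; its columns of differences and area statistics were not used. No per-sample column was left unmapped (0).

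Sites were merged by chromosome, position and strand with Python 3.11.15 and pandas 2.3.3. Chromosome numbers and genes are those of the RefSeq gene table of assembly ASM22609v1; the last listed site of each of the 7 chromosomes lay 1055 to 12690 bp beyond its last gene, but as the build of the lists was not stated, gene positions hold only if the builds are the same. Windows were fitted with edgeR 4.0.16 in R 4.3.3: methylated and unmethylated counts of sites listed in all 4 libraries, summed over 1 kb, at least 10 sites and 10 methylated reads, no trend on the negative binomial dispersion and edgeR's default trend on the quasi-dispersion, Benjamini-Hochberg at 0.05. The script was tested on simulated data. The sites named are the 5 with the highest lower level, 3 inside and 3 outside each limit, and the 12 loci with the most sites; genes are named with at least 3 sites in the body or 5 in the flanks, and laeA. Other genes and regions are named as neighbours of these. The rule, the lists and the genes were chosen with earlier results of these data known. Other limits on depth, level and distance, leaving out each library, a replicate block and a library offset were tried. No sequence is shown, since no genome was used here.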

Additional observations from a re-analysis of the deposited data

How the results depend on the processing

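The number of selected sites rested on the limits. A level minimum of 10% gave 3312 sites in 2564 loci, 119 of them in loci of 5 or more. At 20% there were 21 sites in 11 loci, and at 25% 5 sites in 2 loci, with 0 in loci of 5 or more. A depth minimum of 50 reads left 31 sites in 19 loci, 12 of them in the chromosome 4 locus, and 20 reads gave 271 sites in 248 loci. Leaving out each library in turn from the rule gave 2182 to 2799 sites, 1720 to 2134 loci and 79 to 115 sites in loci of 5 or more: absence from WT replicate 2 alone gave 2182, from WT replicate 1 alone 2799, ΔlaeA replicate 2 alone 2523 and ΔlaeA replicate 1 alone 2347. Locus distances of 200 and 1000 bp left 187 sites, 166 to 168 loci and the 14-site locus. A ceiling of 2 times the library's median depth, set on each site's own reads, also left 187 sites in 168 loci. The selected sites had at most 93 and 74 reads in ΔlaeA replicates 1 and 2, so this ceiling could remove none of them. It was not a test of the raised depth in the stretch around the 14-site locus. In the windows, leaving out each library gave 130 to 477 calls of 10187 (main value 468) and 4 to 9 of the 167 windows with a selected site (main value 11); WT replicates 1 and 2 gave the lowest totals, 145 and 130, and WT replicate 1 the lowest member count, 4. A lone library of a strain was then assumed to vary like the other strain. With the library level as an offset 426 windows were called, 43.7% of them higher in ΔlaeA instead of 23.1%, and 19 of the 167. The replicate numbers name the samples only: same-numbered deviations correlated at 0.01 over windows, and with the replicate block 478 windows and 12 of the 167 were called. No list gives the depth of a site it leaves out, so thin coverage and a low level could not be told apart at unlisted sites.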

Other observations

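Listings at any level and depth that both libraries of a strain shared and the other strain lacked numbered 55165 in ΔlaeA and 80527 in WT. Joined at under 100 bp, the ΔlaeA-only group with the most sites was that on chromosome 4, 3166018 to 3166390, with 60 sites, and its median depth of 189 and 218.5 reads was 3.38 and 4.65 times the library medians. The next groups were at chromosome 4, 4669468 to 4670520 (57 sites), chromosome 7, 586665 to 587782 (41 sites), chromosome 7, 33599 to 34157 (38 sites) and chromosome 1, 902279 to 903063 (30 sites). Their depth was 0.73 to 1.29 times the library medians, and WT listed between 42 and 234 other sites within them. Of the 12 ΔlaeA-only groups with the most sites, that near MYCTH_2019371 was the only one in which neither WT library listed a site. The 12 WT-only groups with the most sites held 52 to 92 sites each, and the ΔlaeA libraries listed between 9 and 249 sites within them.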
